A study of Mus musculus and Homo sapiens with 59 samples.

Results

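Hox genes encode homeodomain transcription factors that lie in 4 clusters, A to D, and are numbered along each cluster from its anterior to its posterior end. The genes described here are all rows of the deposited tables whose symbol is a cluster letter and number of this family: 35 of 19407 rows for mouse cells (11 of cluster A, 10 of B, 5 of C and 9 of D) and 37 of 22192 rows for human cells (11, 10, 8 and 8). The family was selected on measured values, the falls of Hoxa2, Hoxa3 and Hoxa6 in comparisons of membrane-permeabilized with untreated cells, so its falls in those comparisons are given as a description, without a test. The comparisons counted as used in that choice are NIH3T3 MLKL cells with AP20187, NIH3T3 GSDMD cells with 4OHT, NIH3T3 cells with digitonin and LLC cells with digitonin.

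Polyadenylated RNA was measured in TPM, the share of each transcript among all transcripts of a library, scaled to a fixed total. There were 59 libraries, 35 of NIH3T3 mouse embryonic fibroblasts, 16 of LLC mouse lung carcinoma cells, and 4 each of the human carcinoma lines HT29 (colorectal) and BxPC3 (pancreatic). NIH3T3 and LLC cells carrying hMLKL1–181-2Fv, an amino-terminal part of the necroptosis effector MLKL that is forced together by a dimerizer, were given AP20187 (100 nM, 1 h) or left untreated, and parental NIH3T3 cells without a construct were given AP20187 or left untreated. NIH3T3 MLKL cells were also tested in calcium-free DMEM, after siPKC or its control siCTR, and as p65ko or its control noko, each with AP20187 (100 nM, 1 h) or untreated. NIH3T3 and LLC cells carrying mGSDMD1-276-HBD, an amino-terminal part of the pyroptosis pore protein GSDMD fused to a hormone-binding domain, were given 4OHT (50 nM, 2.5 h) or left untreated, as were parental LLC cells. Cells labelled as having no construct were permeabilized with the detergent digitonin, NIH3T3 and LLC cells for 3 h (55 µg/mL), where the untreated libraries are named noDig, and HT29 and BxPC3 cells for 2 h (40 µg/mL). All cells were grown in DMEM and, apart from the calcium-free groups, tested in it. The labels do not say which promoter drives a construct or whether a line is a clone. Each of the 30 groups held 2 libraries, except siPKC with AP20187, which held 1. Whether the libraries of a group came from separate cultures is not labelled, and a p-value here covers only how far these libraries spread.

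In embryos, the set of Hox genes that a cell transcribes records its position along the body axis, and many adult cells and cell lines keep part of that code. Fibroblasts in particular keep a Hox pattern that reflects where in the body they came from. Polycomb complexes keep silent Hox genes closed, trithorax proteins keep active ones open, retinoic acid induces the anterior genes, and HOX proteins bind DNA together with PBX, MEIS and PKNOX cofactors.

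Several labels were checked before the results. The LLC libraries labelled noDig and Digitonin carry no construct by their labels, yet Gsdmd averaged 331 TPM in the digitonin and 335 TPM in the noDig libraries, close to the 339 and 376 TPM of LLC GSDMD cells with and without 4OHT and far above the 22.6 TPM of parental LLC cells. They are called the libraries labelled noDig and Digitonin throughout. In p65ko cells Rela averaged 19.4 TPM with AP20187 and 13.8 TPM untreated, against 93.2 and 49.4 TPM in noko cells. After siPKC Prkca averaged 6.72 TPM with AP20187 and 7.75 TPM untreated, against 32.3 and 31.8 TPM after siCTR. Other protein kinase C genes were not lower. In the same order, Prkcd had 40.2 and 39.1 TPM, against 27.6 and 25.7 TPM, and Prkce 5.25 and 4.93 TPM, against 4.2 and 3.98 TPM. All 7 fibroblast markers averaged at least 1 TPM in NIH3T3 cells. In LLC cells 3 of 7 fibroblast markers (Col3a1, Pdgfra and Vim) and 3 of 6 epithelial markers (Krt8, Krt18 and Krt19) did, while Epcam and Cdh1 did not. In HT29 cells 4 of 6 colonic markers averaged at least 1 TPM, and CDX1 and CDX2, the caudal-related regulators of intestinal identity, did not. In BxPC3 cells 4 of 5 pancreatic ductal markers did, and CFTR did not. All 5, CFTR included, averaged at least 1 TPM in HT29 cells, so that level does not set the 2 lines apart. Between untreated HT29 and BxPC3 cells, 4 of the 5 were called lower and 1 higher in HT29, beside 36.6% and 43.6% of all tested genes. Of the macrophage and leukocyte markers, 3 of 5 (Cd68, Csf1r and Lyz2) averaged at least 1 TPM in NIH3T3 cells and 1 of 5 (Cd68) in LLC cells. Of the 2 human leukocyte markers 1, CD68, did in both HT29 and BxPC3 cells. The defining leukocyte marker Ptprc, or PTPRC, averaged under 1 TPM in every line.

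The promoter sequences of the 3 genes behind the choice, and of Hoxd8, the Hox gene with the highest mean level in untreated parental NIH3T3 cells, are printed because the changes below concern these transcripts. Each is the 250 bases before the RefSeq start of the gene (GRCm38.p6), 5′ to 3′ on the gene's strand, with matches to CCAAT and to TGATNNAT, a site that HOX and PBX proteins share, in capitals on either strand. 
Hoxa2, chr6:52164832-52165081, minus strand: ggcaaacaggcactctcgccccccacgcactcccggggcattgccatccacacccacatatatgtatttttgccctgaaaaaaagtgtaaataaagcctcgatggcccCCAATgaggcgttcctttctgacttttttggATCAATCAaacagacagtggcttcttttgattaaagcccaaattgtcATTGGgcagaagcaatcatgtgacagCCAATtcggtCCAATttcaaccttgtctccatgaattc
Hoxa3, chr6:52213068-52213317, minus strand: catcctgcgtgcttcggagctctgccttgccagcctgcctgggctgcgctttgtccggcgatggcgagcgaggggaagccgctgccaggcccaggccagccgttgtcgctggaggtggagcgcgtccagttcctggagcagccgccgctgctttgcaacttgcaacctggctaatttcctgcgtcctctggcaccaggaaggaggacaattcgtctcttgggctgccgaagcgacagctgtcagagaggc
Hoxa6, chr6:52208673-52208922, minus strand: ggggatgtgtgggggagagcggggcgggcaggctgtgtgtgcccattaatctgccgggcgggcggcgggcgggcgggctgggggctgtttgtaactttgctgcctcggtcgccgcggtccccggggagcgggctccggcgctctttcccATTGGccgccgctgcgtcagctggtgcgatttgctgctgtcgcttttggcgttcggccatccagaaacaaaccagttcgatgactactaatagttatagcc
Hoxd8, chr2:74704365-74704614, plus strand: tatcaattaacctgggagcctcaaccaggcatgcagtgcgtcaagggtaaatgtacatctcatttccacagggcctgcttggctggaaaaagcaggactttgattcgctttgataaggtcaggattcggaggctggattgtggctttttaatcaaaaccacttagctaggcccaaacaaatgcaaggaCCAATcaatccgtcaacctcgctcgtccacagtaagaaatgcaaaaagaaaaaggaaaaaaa
Hoxa2 held 4 matches to CCAAT and 1 to TGATNNAT, with no overlap between them, Hoxa6 and Hoxd8 held 1 CCAAT each, and Hoxa3 held neither motif. CCAAT was present in 33.8% and TGATNNAT in 7.68% of the 32851 promoter windows of the same length, and in 14 and 4 of the 22 Hox windows that RefSeq listed. TATAAA was in 12.4% of all windows, in 4 of the 22, and in none of the 4 printed. The 4 windows held 6 (Hoxa2), 18 (Hoxa3), 24 (Hoxa6) and 6 (Hoxd8) CG dinucleotides, against a median of 13 in the 22 Hox windows and 6 in all windows.

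In GENCODE vM21 (mm10) all 35 mouse genes had an entry. The cluster A genes lie on chromosome 6 from 52155590 to 52260880 on the minus strand, a span of 105.3 kb. Hoxa2 (ENSMUSG00000014704.10) spans 52162417 to 52164831, Hoxa3 (ENSMUSG00000079560.13) spans 52169062 to 52213336, and Hoxa6 (ENSMUSG00000043219.9), at 52206288 to 52208722, lies within the span of Hoxa3 without sharing exon bases with it. By these positions the RefSeq window printed for Hoxa3 lies within the Hoxa3 gene, and part of the Hoxa6 window lies within the Hoxa6 gene. Hoxa2 and Hoxa3 share exon bases with the annotated gene Gm28308 on the same strand, and Hoxa3 also with antisense genes, among them Hoxaas2 and Hoxaas3. Hoxd3 and Hoxd4 share exon bases with each other on the same strand. In all, 20 of the 35 shared no exon bases with another gene, including Hoxa5, Hoxa6, Hoxa10, Hoxc6, Hoxd8 and Hoxd9. Strand use in the authors' quantification is not given in the sources used here, so the levels of the others carry this uncertainty.

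Untreated fibroblasts and carcinoma cells expressed different parts of the Hox clusters. In NIH3T3 cells 18 of the 35 genes reached 1 TPM in at least 1 of 18 untreated libraries, 2 were listed at 0 in all 35 libraries and 17 stayed under 1 TPM in all of them. In parental NIH3T3 cells the cluster sums were 104 ± 0.565 TPM for A, 7.10 ± 1.73 TPM for B, 14.4 ± 0.164 TPM for C and 74.0 ± 1.42 TPM for D (SD, n = 2). Hoxd8, a thoracic and lumbar gene of cluster D, led with 60.5 and 57.7 TPM in the 2 libraries. It was followed by Hoxa5, which acts in lung and neck skeleton development, with 27.5 and 26.8 TPM, and by Hoxa7, a trunk gene, with 19.9 and 19.4 TPM. Hoxa3, needed for thymus and parathyroid, had 15.4 and 15.7 TPM, and Hoxa2, which patterns the second pharyngeal arch, had 14 and 16.3 TPM. The libraries of Hoxa3 and Hoxa2 overlapped, so their order is not resolved. Hoxa4 (10.5 and 11.1 TPM), Hoxd9 (9.37 and 9.12 TPM), Hoxc6 (8.05 and 7.61 TPM) and Hoxa6 (7.55 and 7.58 TPM) came next, with Hoxc6 and Hoxa6 within 1 TPM of each other in every library.

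**Figure D1:**
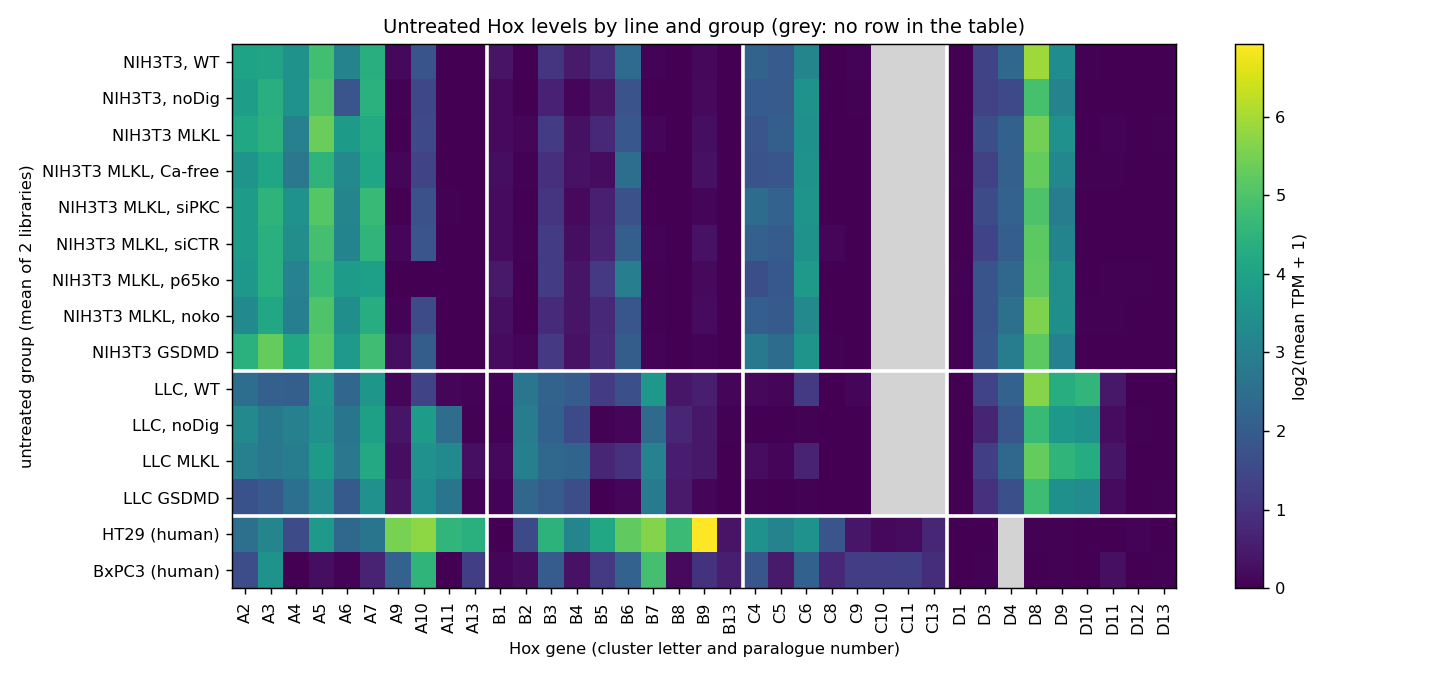
Mean level of Hox genes, as log2(mean TPM + 1), in the 15 untreated groups (rows, 2 libraries each) by cluster and number (columns). NIH3T3 groups are bright in A2 to A7, C4 to C6 and D8, LLC groups in B2, B7 and D8 to D10, HT29 in A9 to A13 and B3 to B9, and BxPC3 in A3, A10 and B7, while cluster D is dark in both human lines.

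In LLC cells 21 of the 35 genes reached 1 TPM in at least 1 of 8 untreated libraries, 14 stayed under 1 TPM in all 16 libraries, and none was at 0 in all. The untreated parental LLC libraries summed to 42.8 ± 2.03 TPM for cluster A, 28.7 ± 0.691 TPM for B, 1.56 ± 0.104 TPM for C and 96.7 ± 0.318 TPM for D (SD, n = 2). Hoxd8 led again, with 48.1 and 51.3 TPM, followed by Hoxd10, a posterior gene with roles in the hindlimb, with 23.7 and 21.8 TPM and Hoxd9 with 18.6 and 19.0 TPM. Hoxb7, Hoxa7 and Hoxa5, genes of the trunk, followed with 12.6 and 11.3 TPM, 11.4 and 12 TPM and 10.1 and 12.2 TPM, levels whose libraries overlapped. Hoxb2, a hindbrain gene, had 5.09 and 6.04 TPM. Of the genes that passed the filter (at least 1 TPM in 2 libraries of the comparison), 12 were higher and 8 lower in untreated NIH3T3 than in untreated LLC cells without a construct by label (limma, Benjamini-Hochberg adjusted p under 0.05), of 23, beside 37.8% of all tested genes higher and 47.2% lower. A gene under 1 TPM in every library of one side passed this filter only through the other side and had to differ. Values of such Hox genes are given without a p-value here and below. In this comparison 8 of the 23 were such genes, and of the other 15, 10 were higher and 3 lower in NIH3T3 cells. Values of Hoxa2, Hoxa3 and Hoxa6 are likewise given without a p-value wherever a comparison uses untreated libraries of an arm that served the choice.

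The largest differences between the fibroblasts and the carcinoma cells were in cluster D and B genes that averaged under 1 TPM in NIH3T3 cells. Hoxd10 averaged 0.0141 TPM in NIH3T3 and 16.7 TPM in LLC cells (difference -4.04, SE 0.04). Hoxb7 averaged 0.0217 TPM in NIH3T3 and 8.12 TPM in LLC cells (difference -3.01, SE 0.08), and Hoxb2 was listed at 0 in the 4 NIH3T3 libraries and averaged 6.03 TPM in LLC cells. In the other direction, Hoxc6, a thoracic gene with a role in mammary and limb patterning, averaged 9.22 TPM in NIH3T3 and 0.651 TPM in LLC cells (log2 fold change 2.73, SE 0.08, adjusted p = 9.3e-23). Its neighbours Hoxc4 (difference 2.04) and Hoxc5 (1.93), Hoxa3 (1.73) and Hoxa5 (1.36, adjusted p = 4.31e-19) were also higher in NIH3T3 cells, and Hoxb4 was lower (-1.47). This comparison rests partly on the LLC libraries labelled noDig. With the parental libraries alone Hoxa10 was higher in NIH3T3 cells by 0.37, against a difference of -0.96 with both groups, and with the noDig libraries alone Hoxa6 was lower in NIH3T3 cells by 0.86, against 0.01.

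The untreated LLC groups differed among themselves in the posterior genes. Hoxa10, which acts in uterus and limb, had 9.64 and 9.13 TPM in LLC GSDMD cells, 9.80 and 10.8 TPM in LLC MLKL cells, 14 and 11.9 TPM in the libraries labelled noDig and 1.46 and 1.90 TPM in parental LLC cells. Hoxa11, which acts in forearm and uterus, had 5.94 and 4.89 TPM in LLC GSDMD, 9.23 and 8.41 TPM in LLC MLKL, 4.37 and 4.70 TPM in noDig and 0.112 and 0.0457 TPM in parental libraries. The parental libraries lay below all others for both genes. Hoxb6, a trunk gene, ran the other way, with 0 and 0.139 TPM in LLC GSDMD, 1.05 and 0.898 TPM in LLC MLKL, 0.0684 and 0.0701 TPM in noDig and 2.01 and 2.42 TPM in parental libraries, and Hoxc6 likewise was highest in the parental libraries, at 1.28 and 1.27 TPM.

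Of 21 genes that passed the filter, 3 were higher and 11 lower in untreated LLC GSDMD than in parental LLC cells, beside 26.3% and 35.5% of all tested genes. Of these 21, 4 passed through one side alone, and of the other 17, 2 were higher and 8 lower. Hoxa11 (2.57) and Hoxa10 (1.96, adjusted p = 6.06e-08) had the largest positive differences, and Hoxb6 (-1.59), Hoxd10 (-1.24, adjusted p = 6.8e-08), Hoxb5 (-1.22), Hoxc6 (-1.14), Hoxd8 (-0.89, adjusted p = 2.59e-07) and Hoxd9 (-0.83, adjusted p = 4.32e-06) the largest negative ones, all on the log2 scale. In untreated LLC MLKL cells 7 of 21 were higher and 6 lower than in parental cells, beside 26.9% and 30.8% of all tested genes, and 6 and 4 among the 18 that did not pass through one side alone. Hoxa11 (3.19) and Hoxa10 (2.08) again led, followed by Hoxa4 (0.84, adjusted p = 0.000318) and Hoxa3 (0.62, adjusted p = 0.00517), and Hoxb6 (-0.70, adjusted p = 0.000352), Hoxb7 (-0.63, adjusted p = 0.00334), Hoxc6 (-0.53) and Hoxa7 (0.52, adjusted p = 0.000801) followed them. The libraries labelled noDig, set against the parental ones after the data were seen, had 6 of 21 genes higher and 10 lower, beside 26.2% and 40.5% of all tested genes, and 5 and 6 among the 16 that did not pass through one side alone. Here Hoxa10 (2.38, adjusted p = 1.01e-08), Hoxa11 (2.36) and Hoxa4 (0.94, adjusted p = 8.65e-05) were higher, and Hoxb6 (-1.59), Hoxb7 (-1.30, adjusted p = 9.85e-06), Hoxb5 (-1.19), Hoxc6 (-1.15) and Hoxd10 (-1.02, adjusted p = 2.95e-07) lower. Without the first parental library the noDig total of 16 was 10. These 3 comparisons share the parental libraries, and a construct cannot be told apart from the line that carries it.

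**Figure D2:**
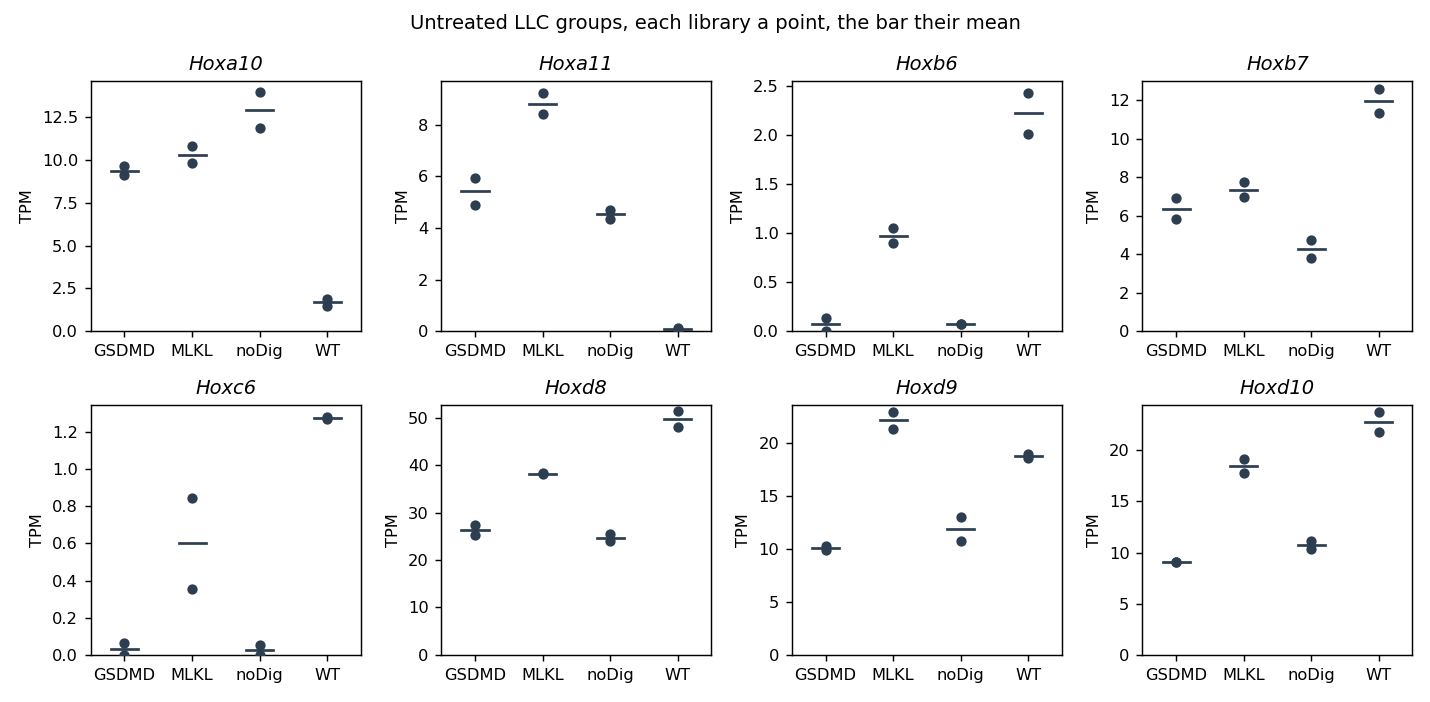
Level in TPM of 8 Hox genes in the untreated LLC groups labelled GSDMD, MLKL, noDig and WT (parental), with each library a point and the bar their mean. Hoxa10 and Hoxa11 are lowest in the WT libraries, and Hoxb6, Hoxb7, Hoxc6, Hoxd8 and Hoxd10 are highest there.

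Levels of the expressed genes also differed between untreated NIH3T3 groups. In untreated NIH3T3 GSDMD cells 12 of the 17 genes that passed the filter were higher and 2 lower than in parental cells, beside 29.7% and 25.4% of all tested genes, with a median difference of 0.43 against 0.02 over all tested genes. Hoxa3 had 38.9 and 37.4 TPM in GSDMD cells and 15.4 and 15.7 TPM in parental cells (difference 1.24, SE 0.10). Hoxd8 was lower in GSDMD cells, with 34.6 and 36.0 TPM against 60.5 and 57.7 TPM in parental cells (log2 fold change -0.73, SE 0.08, adjusted p = 7.58e-08). Hoxa6 (0.66), Hoxc4 (0.61, adjusted p = 0.00332), Hoxd4 (0.61, adjusted p = 0.00192), Hoxa4 (0.56, adjusted p = 1.1e-05) and Hoxc5 (0.47, adjusted p = 0.000942) were higher in GSDMD cells. In untreated NIH3T3 MLKL cells 4 of 17 were higher and 2 lower than in parental cells, beside 22.3% and 29.4% of all tested genes. These were Hoxa6 (0.66), Hoxa5 (0.52, adjusted p = 6.45e-08), Hoxa3 (0.41) and Hoxc6 (0.32, adjusted p = 0.0177) upward, and Hoxa4 (-0.55, adjusted p = 1.53e-05) and Hoxd8 (-0.43, adjusted p = 8.24e-05) downward. Both comparisons use untreated libraries that also served the choice of the family, so a high level of Hoxa2, Hoxa3 or Hoxa6 in them is not independent of it, and the counts include these genes.

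The NIH3T3 libraries labelled noDig, set against the parental ones after the data were seen, had 3 of 17 genes higher and 6 lower, beside 18.4% and 57.7% of all tested genes. Hoxa6 had 3.08 and 2.03 TPM in noDig and 7.55 and 7.58 TPM in parental libraries (difference -1.28, SE 0.27). Hoxd8 had 27.9 and 30.6 TPM in noDig and 60.5 and 57.7 TPM in parental libraries (log2 fold change -0.99, SE 0.08, adjusted p = 1.16e-10). Hoxd4 (-0.78, adjusted p = 8.51e-05), Hoxb6 (-0.59, adjusted p = 0.0144), Hoxb3 (-0.43) and Hoxd9 (-0.26, adjusted p = 0.0199) were also lower, and Hoxc6 (0.39, adjusted p = 0.00268), Hoxa3 (0.29) and Hoxa5 (0.20, adjusted p = 0.00192) higher. The median over all tested genes was -0.29 here. The noDig libraries also served the choice, and the counts include Hoxa3 and Hoxa6. After median centring 3 genes were lower and 8 higher, and the sign of Hoxd9 turned under median centring and quantile normalization.

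Without AP20187, levels of Hoxa5, Hoxa4, Hoxd3 and Hoxd9 were lower in MLKL cells kept in calcium-free medium. In untreated MLKL cells 9 of 17 genes were lower and 1 higher in calcium-free than in complete medium, beside 27.7% and 8.55% of all tested genes, with a median difference of -0.25 against -0.07 over all tested genes. Hoxa5 had 21.2 and 22.1 TPM in calcium-free and 40.6 and 37.9 TPM in complete medium (log2 fold change -0.83, SE 0.05, adjusted p = 9.31e-11). Hoxa2 (-0.55), Hoxa3 (-0.39), Hoxd3 (-0.34, adjusted p = 0.0249), Hoxa4 (-0.26, adjusted p = 0.0188) and Hoxd9 (-0.25, adjusted p = 0.0466) were lower and Hoxb6 higher (0.62, adjusted p = 0.023). After median centring 3 genes were lower and 1 higher. The total of 10 called genes was 5 after quantile normalization, and 5 without the second untreated library of either medium, and the complete-medium libraries here are those of the comparison used in the choice, where a high level of Hoxa2, Hoxa3 or Hoxa6 was part of it. After siPKC 2 of 17 genes, Hoxa5 (0.21, adjusted p = 0.00254) and Hoxa7 (0.17, adjusted p = 0.0189), were higher than after siCTR and none was lower, beside 23.9% and 21.7% of all tested genes. After median centring or quantile normalization 2 were higher and 2 lower. The total was 4 without the first untreated siCTR library.

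In untreated p65ko cells 5 of 18 genes were higher and 5 lower than in noko cells, beside 31.8% and 15.2% of all tested genes, and 4 and 4 among the 15 that did not pass through one side alone. Hoxa10 had 0.0364 and 0 TPM in p65ko and 2.13 and 1.98 TPM in noko cells (difference -1.59, SE 0.13). The groups did not overlap, and 26.7% of all tested genes likewise lay lower without overlap. Hoxb6 had 6.55 and 6.93 TPM in p65ko and 2.08 and 3.11 TPM in noko cells (log2 fold change 1.12, SE 0.21, adjusted p = 0.000172). Hoxc6 (0.49, adjusted p = 0.00102) and Hoxa2 (0.38, adjusted p = 0.0115) were higher, and Hoxc4 (-0.42, adjusted p = 0.0402), Hoxa7 (-0.41, adjusted p = 3.97e-06), Hoxd8 (-0.37, adjusted p = 0.000485) and Hoxa5 (-0.33, adjusted p = 3.11e-05) lower. After quantile normalization 3 were higher and 7 lower. Without the first untreated library of noko or of p65ko the total of 10 was 6.

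Forcing MLKL together with AP20187 lowered the anterior and central cluster A genes within 1 h in NIH3T3 siCTR, siPKC, p65ko and noko cells. These arms did not serve the choice. The calcium-free and LLC MLKL arms, also outside the choice, did not show such falls and are given below. In siCTR cells Hoxa3 had 5.28 and 5.48 TPM with AP20187, against 18.1 and 22.3 TPM untreated (log2 fold change -1.72, SE 0.10, adjusted p = 6.22e-12). Hoxa2 had 4.43 and 3.17 TPM with AP20187, against 14.1 and 12.3 TPM untreated (log2 fold change -1.57, SE 0.12, adjusted p = 3.03e-10). Hoxa5 had 9.56 and 10.9 TPM with AP20187, against 28.8 and 28.0 TPM untreated (log2 fold change -1.39, SE 0.05, adjusted p = 2.5e-15). In all 3 genes every treated library lay below every untreated one, which held for 61.6% of all tested genes. Hoxa6 had 3.05 and 2.5 TPM with AP20187, against 7.38 and 8.10 TPM untreated (log2 fold change -1.21, SE 0.27, adjusted p = 0.000493). Hoxd4 (-0.87, adjusted p = 3.81e-05) and Hoxa4 (-0.70, adjusted p = 4.67e-07) also fell, and Hoxb3 (-0.86) passed the filter only through the untreated libraries. Of the 17 genes that passed the filter 14 fell and none rose, beside 51.8% of all tested genes that fell and 13.7% that rose, and the median change was -0.66, against -0.19 over all tested genes. After median centring, which removes that shift, 11 fell and 1 rose. The share of all tested genes after centring is not given for any comparison here, so the centred counts have no background beside them. Of the 7 fibroblast markers 2 rose and 3 fell in siCTR cells, with a median change of -0.10. In siPKC cells 2 rose and 4 fell, beside 10.5% and 37.5% of all tested genes. In p65ko cells 2 rose and 3 fell, beside 8.99% and 50.4%, and in noko cells 2 and 5, beside 10.6% and 55.5%. The 7 markers summed to between 7748 and 7769 TPM with AP20187 and between 6125 and 6252 TPM untreated in siCTR cells. Most of this was the intermediate filament gene Vim (6655 TPM with AP20187 and 4871 TPM untreated). Their part in the Hox changes was not tested. TPM are shares of the RNA in a library, so in these bulk samples fewer cells expressing a gene and less RNA per cell cannot be told apart.

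Hoxc6 did not share these falls in siCTR cells. It had 10.9 and 12.7 TPM with AP20187, against 10.1 and 11.5 TPM untreated (log2 fold change 0.12, SE 0.11, adjusted p = 0.36), and the groups overlapped. Hoxd8, the most abundant of the expressed genes, had 25.8 and 21.3 TPM with AP20187, against 37.0 and 33.0 TPM untreated (log2 fold change -0.56, SE 0.08, adjusted p = 1.88e-06). By cluster, the median change in siCTR cells was -1.18 over 8 genes of A, -0.66 over 2 of B, -0.30 over 3 of C and -0.44 over 4 of D, and this difference between clusters was not tested.

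**Figure D3:**
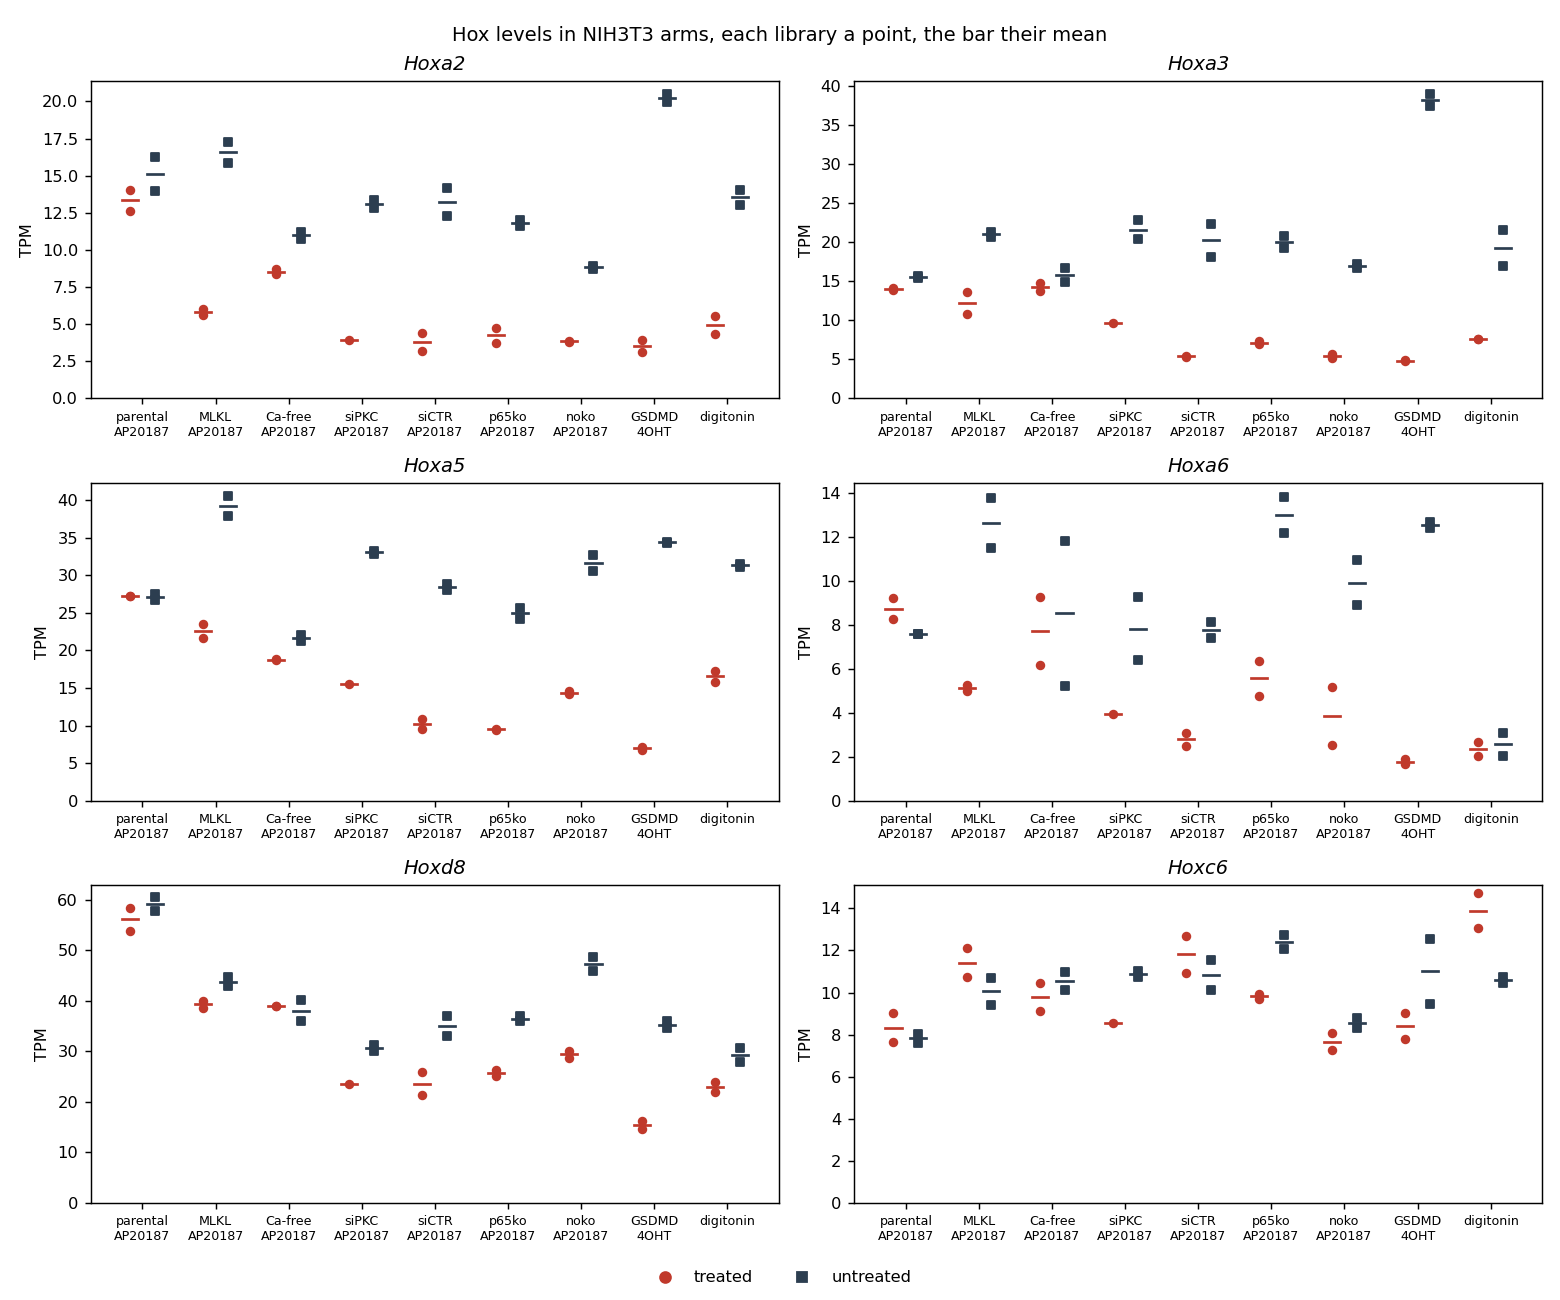
Level in TPM of 6 Hox genes in the 9 NIH3T3 arms, with each library a point, the bar their mean, and treated libraries (circles) left of untreated ones (squares). Hoxa2, Hoxa3 and Hoxa5 are lower in treated libraries of every arm with siPKC, siCTR, p65ko or noko and lie close together in parental cells, and Hoxc6 stays between 7 and 15 TPM throughout.

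Hoxa2, Hoxa3, Hoxa5 and Hoxa6 were among the 5 largest falls in the siPKC, p65ko and noko arms as well. In siPKC cells, with a single treated library, Hoxa2 had 3.94 TPM with AP20187, against 13.3 and 12.8 TPM untreated (log2 fold change -1.51, SE 0.14, adjusted p = 3.34e-08). Hoxa3 had 9.71 TPM with AP20187, against 20.4 and 22.8 TPM untreated (log2 fold change -1.07, SE 0.13, adjusted p = 6.04e-07), and Hoxa6 had 3.93 TPM, against 9.25 and 6.38 TPM untreated (log2 fold change -0.82, SE 0.33, adjusted p = 0.0445). Of 17 genes 13 fell and none rose, beside 37.5% of all tested genes that fell and 10.5% that rose, with a median of -0.57 against -0.14. Hoxa5 (-1.04, adjusted p = 3.73e-11), Hoxd4 (-0.69, adjusted p = 0.0043), Hoxa4 (-0.68, adjusted p = 2.23e-05) and Hoxa7 (-0.64, adjusted p = 1.8e-07) were among the other large falls. The lone treated library is assumed to vary like the other groups.

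In p65ko cells Hoxa3 had 6.94 and 7.29 TPM with AP20187, against 20.8 and 19.2 TPM untreated (log2 fold change -1.37, SE 0.10, adjusted p = 6.45e-10). Hoxa2 had 3.71 and 4.77 TPM, against 12 and 11.6 TPM untreated (log2 fold change -1.30, SE 0.12, adjusted p = 1.32e-08), and Hoxa6 had 4.77 and 6.35 TPM, against 12.2 and 13.8 TPM untreated (log2 fold change -1.10, SE 0.27, adjusted p = 0.00154). Of 17 genes 16 fell and none rose, beside 50.4% of all tested genes that fell and 8.99% that rose, with a median of -0.62 against -0.19, and 11 fell after median centring. Hoxa5 (-1.30, adjusted p = 2e-14), Hoxd4 (-0.87, adjusted p = 5.43e-05), Hoxb5 (-0.79) and Hoxa4 (-0.72, adjusted p = 5.39e-07) were among the 8 largest. The gene that did not pass was Hoxc4 (-0.04, adjusted p = 0.847).

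In noko cells Hoxa3 had 5.19 and 5.72 TPM with AP20187, against 16.6 and 17.2 TPM untreated (log2 fold change -1.47, SE 0.10, adjusted p = 1.12e-10). Hoxa6 had 5.17 and 2.52 TPM, against 10.9 and 8.90 TPM untreated (log2 fold change -1.22, SE 0.27, adjusted p = 0.000487), and Hoxa2 had 3.80 and 3.87 TPM, against 8.70 and 8.94 TPM untreated (log2 fold change -1.02, SE 0.12, adjusted p = 2.3e-07). Of 16 genes 13 fell and none rose, beside 55.5% of all tested genes that fell and 10.6% that rose, with a median of -0.61 against -0.22, and 10 fell after median centring. Hoxa5 (-1.09, adjusted p = 2.98e-13), Hoxd4 (-0.77, adjusted p = 0.000167), Hoxd8 (-0.67, adjusted p = 1.7e-07) and Hoxa10 (-0.65) were among the other large falls. Hoxb6 (-0.40, adjusted p = 0.102), Hoxc4 (-0.27, adjusted p = 0.159) and Hoxc6 (-0.14, adjusted p = 0.261) did not pass. Without the genes under 1 TPM in every treated library, of which Hoxa10 was one in noko and Hoxb5 in p65ko cells, 13 of 16 genes fell in siCTR, 12 of 16 in siPKC, 14 of 15 in p65ko and 12 of 15 in noko cells.

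The p65 knockout and siPKC left most of these changes without a detected difference. Of 18 genes 1, Hoxa10, was called for its response to AP20187 in p65ko against noko cells, beside 4.1% of all tested genes. It had 0.0346 and 0.0504 TPM with AP20187 and 0.0364 and 0 TPM untreated in p65ko cells, against 0.974 and 0.926 TPM with AP20187 and 2.13 and 1.98 TPM untreated in noko cells. It passed the filter only through noko cells and, being near 0 in untreated p65ko cells, could not fall there, so no difference of response is read from it. Of 17 genes 2, Hoxa3 (0.65, adjusted p = 0.0169) and Hoxa5 (0.36, adjusted p = 0.0117), fell less after siPKC than after siCTR, beside 8.29% of all tested genes, on the strength of a single treated siPKC library. Without the first untreated siPKC library 1 of them passed, and after quantile normalization none did.

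Parental NIH3T3 cells without MLKL, given the same dimerizer, showed no called Hox gene in limma. Of 17 genes 0 were called (0 at an unadjusted p under 0.05), beside 0.304% of all tested genes, and the median change was -0.07, against -0.02 over all tested genes. Hoxa2 had 14 and 12.6 TPM with AP20187, against 14 and 16.3 TPM untreated (log2 fold change -0.17, SE 0.12, adjusted p = 0.946), with overlapping groups. Hoxa3 had 14.1 and 13.9 TPM, against 15.4 and 15.7 TPM untreated (log2 fold change -0.14, SE 0.10, adjusted p = 0.95), and Hoxa6 had 9.19 and 8.25 TPM, against 7.55 and 7.58 TPM untreated (log2 fold change 0.18, SE 0.27, adjusted p = 0.99).

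In calcium-free medium 1 gene of 16 was called, Hoxa5, with 18.7 and 18.8 TPM with AP20187, against 21.2 and 22.1 TPM untreated (log2 fold change -0.20, SE 0.05, adjusted p = 0.031), beside 3.42% of all tested genes that fell and 2.27% that rose. The call was lost when any 1 library of the comparison was left out. Hoxa2 had 8.69 and 8.35 TPM with AP20187, against 11.2 and 10.7 TPM untreated (log2 fold change -0.33, SE 0.12, adjusted p = 0.111). Hoxa3 had 13.7 and 14.8 TPM, against 14.9 and 16.7 TPM untreated (log2 fold change -0.14, SE 0.10, adjusted p = 0.497). Hoxa6 had 6.16 and 9.27 TPM, against 5.21 and 11.8 TPM untreated (log2 fold change -0.06, SE 0.27, adjusted p = 0.939), with widely spaced and overlapping libraries. The median change over the 16 genes was 0.08, against 0.02 over all tested genes.

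In complete medium, the arm that served the choice, Hoxa2 had 6.0 and 5.65 TPM with AP20187, against 15.9 and 17.3 TPM untreated (difference -1.37, SE 0.12). Hoxa6 had 5.26 and 4.99 TPM, against 11.5 and 13.8 TPM untreated (difference -1.15, SE 0.27), and Hoxa3 had 10.8 and 13.6 TPM, against 20.6 and 21.3 TPM untreated (difference -0.75, SE 0.10). Of 17 genes 10 lay past the threshold downward and none upward, beside 16.5% and 15.8% of all tested genes, from which nothing is read because the family was chosen here. Against these values, the change of Hoxa2 in calcium-free medium was higher by 1.03 and that of Hoxa6 by 1.09 on the log2 scale, given without a test for the same reason. In that difference of responses 10 of 17 genes lay past the threshold upward and none downward, beside 10.8% and 11.1% of all tested genes.

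The other arms of the choice are described in the same way. In NIH3T3 GSDMD cells Hoxa3 had 4.87 and 4.73 TPM with 4OHT, against 38.9 and 37.4 TPM untreated (difference -2.75, SE 0.10). Hoxa6 had 1.90 and 1.66 TPM, against 12.4 and 12.7 TPM untreated (difference -2.28, SE 0.27), and Hoxa2 had 3.96 and 3.11 TPM, against 20.0 and 20.5 TPM untreated (difference -2.23, SE 0.12). Hoxa5 (-2.15), Hoxa4 (-1.84) and Hoxa7 (-1.29) were among the next in size, and all 17 that passed the filter lay past the threshold downward, beside 58.6% of all tested genes downward and 20% upward, with a median of -1.15 against -0.29. The smallest change was that of Hoxc6, with 9.04 and 7.77 TPM with 4OHT, against 12.5 and 9.46 TPM untreated (difference -0.34, SE 0.11), a value that was 0.02 after quantile normalization. No parental NIH3T3 libraries with 4OHT were analysed here.

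With digitonin, Hoxa2 had 4.37 and 5.56 TPM in NIH3T3 cells, against 14 and 13.1 TPM in noDig libraries (difference -1.29, SE 0.12). Hoxa3 had 7.58 and 7.59 TPM, against 21.6 and 17.0 TPM in noDig libraries (difference -1.23, SE 0.10). Hoxa6 had 2.67 and 2.03 TPM, against 3.08 and 2.03 TPM in noDig libraries (difference -0.08, SE 0.27), so that in this arm it was low in both groups and the groups overlapped. Of 16 genes 11 lay past the threshold downward, beside 34.2% of all tested genes, and 1 upward, beside 39.3%, with a median of -0.44 against 0.02. The upward gene was Hoxc6, with 14.7 and 13.1 TPM with digitonin, against 10.8 and 10.5 TPM in noDig libraries (difference 0.36, SE 0.11).

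**Figure D4:**
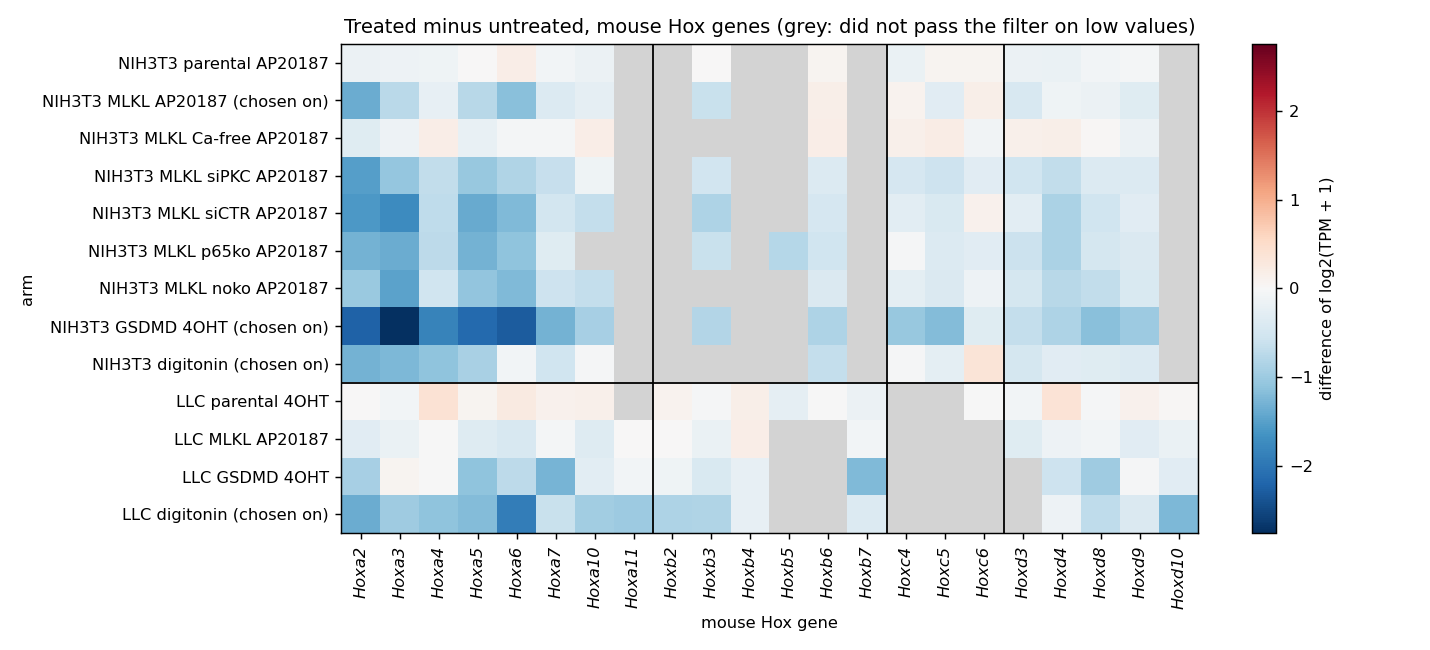
Change of mouse Hox genes (treated minus untreated, difference of log2(TPM + 1), columns) in the 13 mouse arms (rows), with the arms that served the choice of the family marked and grey where a gene did not pass the filter on low values. In the NIH3T3 arms other than parental, the deepest fall is that of Hoxa2 or Hoxa3, and it reaches -2.75 for Hoxa3 in GSDMD cells. In LLC GSDMD cells Hoxa7 fell most (-1.29) and Hoxa3 did not fall (0.07). Falls are shallow in the parental, calcium-free and LLC MLKL arms.

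In LLC carcinoma cells the responses of the MLKL and GSDMD arms were tested separately, and the difference between them was not tested. With AP20187, LLC MLKL cells had 1 called gene of 18, Hoxd9, with 17.9 and 17.5 TPM with AP20187, against 23.0 and 21.3 TPM untreated (log2 fold change -0.31, SE 0.08, adjusted p = 0.0481), beside 2.08% of all tested genes that fell and 5.48% that rose. The call was lost when any 1 library was left out and with a pseudocount of 0.1. Hoxa6 (-0.44, adjusted p = 0.384), Hoxa2 (-0.32, adjusted p = 0.202) and Hoxa3 (-0.19, adjusted p = 0.551) did not pass. In parental LLC cells given 4OHT 0 of 20 genes were called in limma (2 at an unadjusted p under 0.05), beside 0.864% of all tested genes, with changes of 0.00 for Hoxa2, -0.07 for Hoxa3 and 0.25 for Hoxa6.

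In LLC GSDMD cells 4OHT lowered 11 of the 17 genes that passed the filter and raised none, beside 54% of all tested genes that fell and 27.9% that rose, with a median of -0.42 against -0.25. The share called in either direction was thus below that of all tested genes, and 9 of the 15 genes that did not pass through the untreated libraries alone fell. Hoxa7 had 3.36 and 3.99 TPM with 4OHT, against 9.78 and 11.1 TPM untreated (log2 fold change -1.29, SE 0.10, adjusted p = 1.01e-07). Hoxb7 had 2.26 and 2.03 TPM, against 6.92 and 5.82 TPM untreated (log2 fold change -1.22, SE 0.15, adjusted p = 7.7e-06), and Hoxa5 had 3.96 and 3.46 TPM, against 8.74 and 9.46 TPM untreated (log2 fold change -1.10, SE 0.12, adjusted p = 2.05e-06). Hoxd8 (-0.97, adjusted p = 3.23e-08), Hoxa6 (-0.72, adjusted p = 0.0243) and Hoxd4 (-0.58, adjusted p = 0.000521) also fell, and Hoxa2 (-0.91) passed only through the untreated libraries. Hoxa3, the gene with the largest change in NIH3T3 GSDMD cells, had 2.69 and 3.30 TPM with 4OHT, against 3.04 and 2.54 TPM untreated (log2 fold change 0.07, SE 0.16, adjusted p = 0.672), and the difference between the lines was not tested. Without either untreated library the total of 11 was 7, and after quantile normalization 7 fell and 3 rose, with Hoxd10 and Hoxa10 among those whose sign turned.

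In the LLC libraries labelled Digitonin, an arm of the choice, Hoxa6 had 0.495 and 0.976 TPM, against 4.46 and 6.46 TPM in the libraries labelled noDig (difference -1.89, SE 0.26). Hoxa2 had 2.66 and 2.68 TPM, against 9.12 and 7.94 TPM in noDig libraries (difference -1.37, SE 0.14), and Hoxa3 had 2.17 and 2.92 TPM, against 5.55 and 6.37 TPM in noDig libraries (difference -0.98, SE 0.16). The posterior genes Hoxd10, Hoxa11 and Hoxa10 and the hindbrain gene Hoxb2 also had lower levels with digitonin. Hoxd10 had 3.84 and 4.13 TPM, against 10.3 and 11.1 TPM in noDig libraries (difference -1.24, SE 0.08), Hoxa11 changed by -1.0, Hoxa10 by -0.97 and Hoxb2 by -0.85. Of 17 genes 15 lay past the threshold downward and none upward, beside 32.2% and 20.3% of all tested genes, with a median of -0.85 against -0.06.

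The human lines were not part of the choice. With digitonin HOXA3 changed by -1.52 in HT29 cells, beside a median of -0.16 over all tested genes. In BxPC3 cells it changed by -0.57, nearer to the median of -0.37 over all tested genes there. Untreated HT29 cells summed to 178.6 ± 4.40 TPM for cluster A, 278.6 ± 0.881 TPM for B, 32.4 ± 0.689 TPM for C and 0.101 ± 0.0778 TPM for D, and untreated BxPC3 cells to 41.6 ± 2.29, 38.3 ± 2.21, 12.2 ± 0.180 and 0.340 ± 0.249 TPM in that order of clusters (SD, n = 2). In HT29 cells 23 of 37 genes reached 1 TPM in an untreated library and 5 were listed at 0 in all 4 libraries, and in BxPC3 cells 15 did so and 3 were listed at 0. HOXB9, a posterior trunk gene, led HT29 cells with 121 and 120.1 TPM, followed by HOXA10 with 52.4 and 53.9 TPM, HOXB7 with 47.2 and 49.6 TPM and HOXA9, a regulator of blood progenitors, with 46.2 and 43.4 TPM. HOXB7 led BxPC3 cells with 26.4 and 30.3 TPM, followed by HOXA10 with 19.9 and 24.1 TPM and HOXA3 with 10.7 and 10.9 TPM.

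Of the 26 genes that passed the filter in the comparison of untreated HT29 with untreated BxPC3 cells, 22 were called higher and 4 lower in HT29, beside 43.6% and 36.6% of all tested genes. Of these 26, 11 passed only through HT29 and 3 only through BxPC3 libraries, so that their direction was set by the filter, and of the other 12, 11 were higher and 1 was lower in HT29. Without either untreated HT29 library the count was 15. The 11 that passed only through HT29 libraries could then no longer pass the filter, so this drop does not measure lost calls. HOXB9 had 121 and 120.1 TPM in HT29 and 1.20 and 0.841 TPM in BxPC3 cells (log2 fold change 5.92, SE 0.09, adjusted p = 7.64e-09). HOXB8 had 24.8 and 26.3 TPM in HT29 and 0.0784 and 0.191 TPM in BxPC3 cells (difference 4.55, SE 0.09), and HOXA11 had 22.1 and 22.6 TPM in HT29 cells and was listed at 0 in both untreated BxPC3 libraries. HOXA5 (3.46), HOXA9 (3.33, adjusted p = 2.18e-07), HOXA13 (3.13, adjusted p = 3.74e-07), HOXB6 (3.05, adjusted p = 1.44e-07) and HOXB5 (2.95, adjusted p = 2.9e-06) followed. The genes lower in HT29 were HOXC10 (-1.08), HOXC11 (-1.07), HOXC9 (-0.85) and HOXA3 (-0.40, adjusted p = 0.00156).

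Digitonin lowered 21 of the 23 genes that passed the filter in HT29 cells and raised none, beside 44% of all tested genes that fell and 16.5% that rose, with a median of -1.11 against -0.16 over all tested genes. After median centring 21 fell too, a count given without the share of all tested genes after centring. Of the 20 that did not pass through the untreated libraries alone 18 fell. HOXA13, which acts in hindgut and digit development, had 2.96 and 2.40 TPM with digitonin, against 21.2 and 19.1 TPM untreated (log2 fold change -2.53, SE 0.12, adjusted p = 4.88e-06). HOXB8 had 7.13 and 6.61 TPM with digitonin, against 24.8 and 26.3 TPM untreated (log2 fold change -1.76, SE 0.09, adjusted p = 9.37e-06), and HOXA11 had 6.31 and 6.43 TPM, against 22.1 and 22.6 TPM untreated (log2 fold change -1.66, SE 0.08, adjusted p = 4.37e-06). In each of these genes all treated libraries lay below all untreated ones, which held for 57.1% of all tested genes. HOXA3 (-1.52, adjusted p = 5.84e-06), HOXB3 (-1.51, adjusted p = 4.32e-06), HOXA9 (-1.46, adjusted p = 3.84e-05), HOXC6 (-1.46, adjusted p = 0.000116) and HOXA10 (-1.41, adjusted p = 0.000208) completed the 8 largest. HOXB5 (-1.26), HOXA5 (-1.23), HOXA7 (-1.18), HOXB6 (-0.99), HOXB4 (-0.90), HOXC4 (-0.69) and HOXC5 (-0.66) fell too, and HOXB9, the most abundant, fell least of those called, with 85.0 and 84.3 TPM with digitonin, against 121 and 120.1 TPM untreated (log2 fold change -0.50, SE 0.09, adjusted p = 0.0022). Of 4 measured colonic markers 1 rose, the keratin gene KRT20, with 1171 TPM with digitonin and 411 TPM untreated, while LGALS4 had 616 and 592 TPM and VIL1 49.0 and 55.7 TPM, both not called. All 6 on the list summed to between 1835 and 1841 TPM with digitonin and between 1037 and 1085 TPM untreated, and their part in these falls was not tested. HOXA2 fell (-1.06, adjusted p = 0.00559), and HOXA6 (-0.45, adjusted p = 0.0896) and HOXA4 (-0.30, adjusted p = 0.0542) did not pass.

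In BxPC3 cells 7 of 15 genes fell and 2 rose, beside 56.9% and 23.7% of all tested genes, with a median of -0.55 against -0.37. The share that fell was below that of all tested genes. Of the 11 that did not pass through one side alone 4 fell and 1 rose, with a median of -0.25. HOXA10 had 2.05 and 3.19 TPM with digitonin, against 19.9 and 24.1 TPM untreated (log2 fold change -2.68, SE 0.15, adjusted p = 3.62e-06). HOXB7 had 10.7 and 10.8 TPM, against 26.4 and 30.3 TPM untreated (log2 fold change -1.32, SE 0.08, adjusted p = 4.09e-06), and HOXA9 had 0.46 and 0.469 TPM, against 3.63 and 3.5 TPM untreated (difference -1.64, SE 0.11). HOXA13 (-0.95) and HOXC11 (-0.83) passed only through the untreated libraries, HOXA3 (-0.57, adjusted p = 0.000248) and HOXC6 (-0.57, adjusted p = 0.00671) fell, and HOXA2 did not pass (-0.55, adjusted p = 0.0594). HOXC13, which acts in hair and nail, had 2.17 and 2.5 TPM with digitonin, against 0.927 and 0.789 TPM untreated (difference 0.84, SE 0.10), and HOXC10 rose (0.36, adjusted p = 0.0206). Median centring changed the split to 5 lower and 4 higher. The 3 mesenchymal markers, of which COL3A1 averaged under 1 TPM, summed to between 143 and 145.8 TPM with digitonin and between 15.4 and 15.6 TPM untreated, and their part in these changes was not tested. The digitonin dose and time were those of HT29 cells, and the difference between the lines was not tested.

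**Figure D5:**
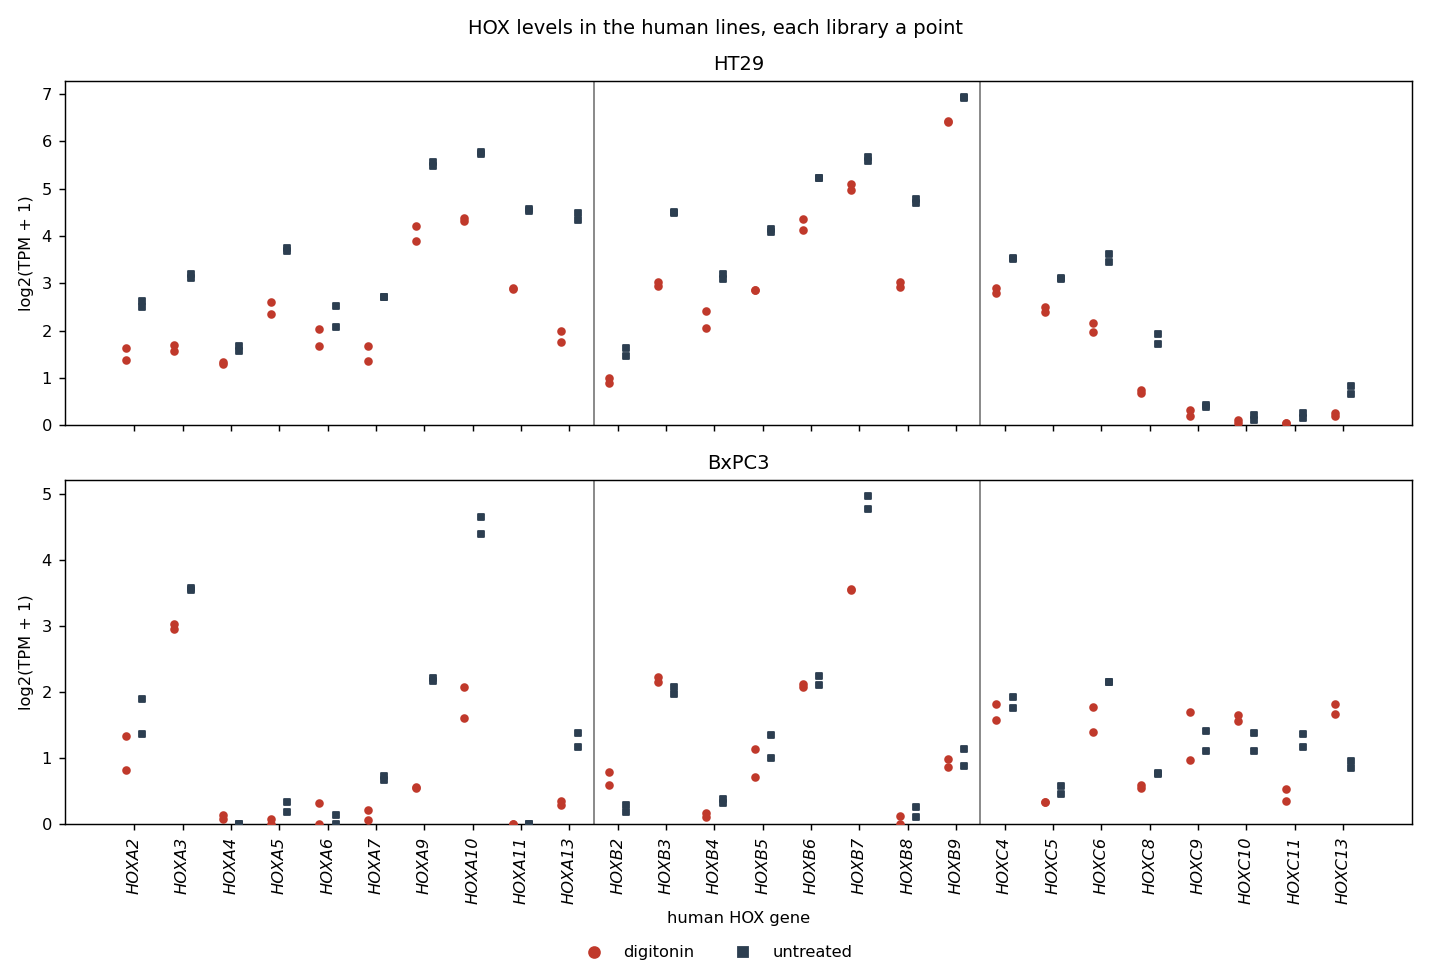
Level, as log2(TPM + 1), of each human HOX gene that averaged at least 1 TPM in some group, in HT29 (upper) and BxPC3 (lower) cells, with each library a point and digitonin (circles) left of untreated (squares). In HT29 cells nearly every gene is lower with digitonin, while in BxPC3 cells HOXA10, HOXA9 and HOXB7 are lower and HOXC13 is higher.

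The H3K27 demethylase gene Kdm6b, known for opening polycomb-silenced Hox genes, rose in most arms that did not serve the choice. It averaged 41.1 TPM with AP20187 and 11.3 TPM untreated in siCTR cells (log2 fold change 1.78, SE 0.09, adjusted p = 2.49e-13), and 32.4 TPM with 4OHT and 8.85 TPM untreated in LLC GSDMD cells (log2 fold change 1.76, SE 0.07, adjusted p = 2.39e-10). KDM6B averaged 32.5 TPM with digitonin and 7.05 TPM untreated in HT29 cells (log2 fold change 2.06, SE 0.06, adjusted p = 7.07e-07), and 95.1 and 10.4 TPM in BxPC3 cells (log2 fold change 3.08, SE 0.06, adjusted p = 5.84e-08). Kdm6b also rose in siPKC (log2 fold change 1.06, SE 0.11, adjusted p = 8.08e-08), p65ko (log2 fold change 1.17, SE 0.09, adjusted p = 7.24e-10) and noko cells (log2 fold change 1.83, SE 0.09, adjusted p = 2.59e-13) and in LLC MLKL cells (log2 fold change 0.44, SE 0.07, adjusted p = 0.00145). Its response was smaller in p65ko than in noko cells (difference of responses -0.66, adjusted p = 0.00304) and after siPKC than after siCTR (-0.72, adjusted p = 0.00267). In calcium-free medium (0.29, adjusted p = 0.0553), parental NIH3T3 cells with AP20187 (-0.32, adjusted p = 0.233) and parental LLC cells with 4OHT (0.18, adjusted p = 0.302) it did not pass. Of the polycomb chromobox genes, Cbx2 averaged 5.61 TPM with AP20187 and 14.8 TPM untreated in siCTR cells (log2 fold change -1.26, SE 0.08, adjusted p = 1.05e-11), but rose with 4OHT in LLC GSDMD cells (log2 fold change 1.04, SE 0.06, adjusted p = 6.48e-09).

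Over the whole polycomb and trithorax list, 4 of 21 measured genes rose and 10 fell in siCTR cells with AP20187, and the share that fell, 47.6%, was below the 51.8% of all tested genes. In siPKC cells 3 rose and 8 fell (38.1%, beside 37.5% of all tested genes), in p65ko cells 4 and 11 (52.4%, beside 50.4%), and in noko cells 4 and 10 (47.6%, beside 55.5%). In siCTR, siPKC, p65ko and noko cells in that order, 19%, 14.3%, 19% and 19% of the list rose. Of all tested genes 13.7%, 10.5%, 8.99% and 10.6% rose in these arms. In LLC GSDMD cells 12 rose (57.1%, beside 27.9% of all tested genes) and 6 fell (28.6%, beside 54%). In HT29 cells 6 of 20 rose (30%, beside 16.5% of all tested genes) and 9 fell (45%, beside 44%). In BxPC3 cells 8 of 21 rose (38.1%, beside 23.7%) and 11 fell (52.4%, beside 56.9%). In parental LLC cells with 4OHT 1 was called, the trithorax gene Kmt2a (log2 fold change 0.46, SE 0.06, adjusted p = 0.00344). Of 7 measured TALE cofactor genes of the PBX, MEIS and PKNOX families, 1 rose and 5 fell in siCTR cells (71.4% fell), 0 and 4 in siPKC (57.1%), 0 and 1 in p65ko (14.3%), and 0 and 4 in noko cells (57.1%), beside the shares of all tested genes given above for these arms. Meis1 averaged 4.02 TPM with AP20187 and 7.36 TPM untreated in siCTR cells (log2 fold change -0.73, SE 0.10, adjusted p = 1.94e-06), and Pbx2 averaged 11.4 TPM with 4OHT and 31.5 TPM untreated in LLC GSDMD cells (log2 fold change -1.39, SE 0.06, adjusted p = 9.88e-10). The list had 2 rises and 4 falls in LLC GSDMD (57.1% fell), 0 and 2 of 5 measured in HT29 (40%), and 2 and 3 of 7 in BxPC3 cells (42.9%). Of all tested genes 54%, 44% and 56.9% fell in these arms.

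Retinoic acid genes and the cluster's own long noncoding RNAs were few. Of 5 measured retinoic acid and Cdx genes 2 rose and 2 fell in siCTR cells, beside 13.7% and 51.8% of all tested genes, among them the binding protein gene Crabp2 upward (log2 fold change 0.97, SE 0.28, adjusted p = 0.00482) and the retinaldehyde reductase gene Dhrs3 downward (log2 fold change -0.71, SE 0.19, adjusted p = 0.00274). Hotairm1, an RNA transcribed divergently from the anterior end of cluster A, averaged 64.0 TPM with AP20187 and 70.9 TPM untreated in siCTR cells (log2 fold change -0.14, SE 0.12, adjusted p = 0.323), with no called change. Of the measured RNAs of this kind 1 of 3 fell in siPKC, 4 of 5 in p65ko and 2 of 4 in noko cells, beside 37.5%, 50.4% and 55.5% of all tested genes. In p65ko cells these were Hotairm1 (log2 fold change -0.31, SE 0.12, adjusted p = 0.0366), Hoxb5os (log2 fold change -0.99, SE 0.22, adjusted p = 0.000653), Hoxaas2 (log2 fold change -0.74, SE 0.15, adjusted p = 0.000241) and Hoxaas3 (log2 fold change -0.75, SE 0.21, adjusted p = 0.00553), and in noko cells Hoxaas2 (log2 fold change -0.59, SE 0.15, adjusted p = 0.0017) and Hoxaas3 (log2 fold change -0.50, SE 0.22, adjusted p = 0.0477). The responses of these 4 RNAs in p65ko and noko cells differed by -0.11 to -0.25 on the log2 scale, with adjusted p of 0.807 to 0.86. In HT29 cells 6 of 7 measured HOX cluster long noncoding RNAs fell with digitonin, beside 44% of all tested genes, HOTAIR of cluster C most, with 1.24 TPM with digitonin and 7.33 TPM untreated (log2 fold change -1.90, SE 0.12, adjusted p = 2.28e-05), and HOTTIP at the posterior end of cluster A next (log2 fold change -1.30, SE 0.12, adjusted p = 0.00011). In BxPC3 cells 1 of 4 measured rose, HOXA-AS2 (log2 fold change 0.37, SE 0.08, adjusted p = 0.00395). HOXB-AS3 fell, with 0.85 TPM with digitonin and 5.47 TPM untreated (difference -1.74, SE 0.26). Of all tested genes 23.7% rose and 56.9% fell in BxPC3 cells. HOTTIP and HOXB-AS3 averaged under 1 TPM with digitonin, so they are given without a p-value. Which other genes of these lists passed the filter through one side alone was not checked, and the counts include any that did.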

How the data were processed

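RNA abundance was deposited by the authors as TPM per gene, 1 table for mouse and 1 for human cells. Per the submitters' processing notes, Salmon was used, with mm10 and hg19. Version, index and strand setting were not given in the sources used here. Since depth cannot be read from TPM, it is unknown, and no counting interval is given.

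A limma-trend model (limma 3.58.1, R 4.3.3) was fitted per line to log2(TPM + 1), with HT29 and BxPC3 together, since TPM are not counts. Genes with at least 1 TPM in at least 2 libraries of a comparison were tested. P-values were adjusted by Benjamini-Hochberg over all tested genes, with a threshold of 0.05. Members under 1 TPM in every library of one side were counted apart, a split made after seeing the data. Fold changes are on the log2(TPM + 1) scale, which understates those of low genes. The scripts were tested on simulated data. The members and gene lists were chosen with earlier results of these data known. Named are Hoxa2, Hoxa3 and Hoxa6, members with a mean of at least 5 TPM in a group, and up to 8 called members per comparison, largest change first. Some genes are not reported here by name. Same-numbered libraries were checked for pairing. Alternatives were another pseudocount, no filter, median centring, quantile normalization, fits on the libraries of a comparison alone, a block for the replicate number, and each library omitted in turn. Promoters come from RefSeq (GRCm38.p6) and positions from GENCODE vM21.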

Additional observations from a re-analysis of the deposited data

Results flagged for a closer look

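The response of 2 Hox genes to AP20187 differed between groups by a test of the difference itself in limma, with Benjamini-Hochberg adjustment over all tested genes. For Hoxa3 the response in siPKC cells exceeded that in siCTR cells by 0.65, and for Hoxa5 by 0.36 (adjusted p = 0.0169 and 0.0117), with 1 treated siPKC library. The same test put the response of Hoxa10 in p65ko cells 0.68 above that in noko cells, but Hoxa10 was near 0 in untreated p65ko cells, could not fall there and passed the filter only through noko cells, so no difference is read from it. What underlies the differences of Hoxa3 and Hoxa5 was not tested.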

How the results depend on the processing

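Of 229 alternative counts of Hox genes past the threshold, 188 stayed within 1.5 times the reported count and 41 did not. Of 5151 alternative values of single genes, 4789 kept direction and side of the threshold, 208 lost the call, 63 gained it, 76 moved and 15 turned sign. The causes were not tested. On the libraries of the comparison alone, the count was 0 in calcium-free medium (reported 1), 6 for calcium-free against complete medium untreated (10), 1 for siPKC against siCTR untreated (2), and 0 for both the p65ko (1) and siPKC (2) differences of response. Calcium-free against complete medium gave 4 after median centring and 5 after quantile normalization. siPKC against siCTR untreated gave 4 after either and without the filter. Quantile normalization left 0 for both differences of response. BxPC3 gave 14 without the filter (9), and LLC MLKL 0 with a pseudocount of 0.1 (1).

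Signs turned after quantile normalization for Hoxa10 (0.059), Hoxa4 (0.36), Hoxd10 (0.044) and Hoxd9 (0.27) in LLC GSDMD cells and Hoxc6 (0.020) in NIH3T3 GSDMD cells, and after median centring for HOXB6 (0.34) in BxPC3 cells. In NIH3T3 noDig against parental libraries they turned after median centring for Hoxa4 (0.34), Hoxd3 (0.30) and Hoxd9 (0.12), and after quantile normalization for Hoxa2 (0.27), Hoxa4 (0.39), Hoxd3 (0.28) and Hoxd9 (0.20). NIH3T3 against LLC turned for Hoxa10 (0.37, parental libraries alone) and Hoxa6 (-0.86, noDig alone).

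With each library left out, counts ranged from 0 to 0 for the p65ko difference of response, LLC MLKL and calcium-free medium, 1 to 2 for the siPKC difference, 7 to 10 for LLC GSDMD, 15 to 23 for HT29 against BxPC3, 5 to 8 for calcium-free against complete medium, 2 to 4 for siPKC against siCTR and 6 to 8 for p65ko against noko untreated, and 6 to 9 for BxPC3. Same-numbered libraries shared only a number: the replicate block left 0 genes for the p65ko difference (reported 1) and moved no other count by over 1.5 times. No block could be fitted for LLC MLKL cells, whose treated libraries carry the same number. For LLC noDig against parental libraries the numbers may be crossed, and the crossed block left the count at 16. In HT29 against BxPC3, 11 genes could no longer pass the filter once an untreated HT29 library was left out. Depth is unknown, so low genes carry an unknown counting error.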
